A study of Mus musculus with 19 samples.

Results

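The data described here are the 4 day 8 libraries of histone H3 trimethylated at lysine 9 (H3K9me3) from mouse embryonic stem cells (ESCs), taken by their labels from 19 chromatin immunoprecipitation sequencing libraries. They comprise 2 control libraries, with the genotype Wildtype in the labels, and 2 libraries labelled Dnmt1 KO, called *Dnmt1* conditional knockout (cKO) here. The study deleted *Dnmt1* in ESCs carrying floxed alleles by inducible Cre and followed the cells as DNA methylation was lost. The question of this comparison is which autosomal loci and gene classes had lost or gained H3K9me3 at day 8 in both control and cKO pairs.

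The labels give the background strain as E14, whereas the study's methods describe a floxed *Dnmt1* line of strain C57BL/6 grown in serum with LIF, in which tamoxifen induces Cre. On the latter account both genotypes come from 1 parental line. The replicates are numbered d8.1 and d8.2 and are called biological in the design text, but no source used here says whether they were separate cultures. The p-values therefore measure the spread between these samples, which may be technical. The study's methods state that its ChIP-seq rested on 1 measurement. The authors therefore called no significant differences and showed transposable elements by a 2-fold criterion. A control and cKO library at day 4 for the same mark, both day 8 pairs for H3K9me2 and H3K27me3, and 1 input library of the control cells served as measures that the day 8 H3K9me3 comparison did not use.

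H3K9me3 is a mark of silent chromatin, laid down by methyltransferases such as SETDB1 that are brought to DNA by TRIM28 (KAP1) and KRAB zinc finger proteins. *Dnmt1* encodes the maintenance DNA methyltransferase, which copies CpG methylation onto the new strand after replication, and its loss leads to passive demethylation. At imprinting control regions the zinc finger protein ZFP57 binds the hexamer TGCCGC when its CpG is methylated, so that the DNA-methylated parental allele carries H3K9me3. Many transposable elements and some zinc finger gene exons carry the mark as well.

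The *Dnmt1* gene was examined first as a check of the labels. Over its 25 tiles of 2 kb the mean was 0.49 and 0.428 RPM in the controls and 0.459 and 0.458 RPM in cKO, where RPM is a read number scaled to the library's total in tiles, so the gene as a whole did not separate the genotypes. In 1 tile, chr9:20744001-20746000, singled out after its values were seen, both pairs were at least 2-fold lower, with 7 and 11 reads in the controls and 0 and 1 read in cKO, and its level was too low to be tested. The same tile was at 0 RPM in all 4 day 8 cKO libraries of H3K9me2 and H3K27me3, against 0.314 to 0.452 RPM in their controls. The position of the deleted part is not given in the sources used here. Library totals in tiles were 18762413 and 19364620 reads for the controls, 5669098 for cKO 1 and 19465245 for cKO 2, against 19010249 for the input. The cKO 1 library was thus the shallow one, with 12.7% of tiles empty and a median of 3 reads in each tile, and its single-tile values carry the largest counting error. Promoters of 9 ESC genes, *Pou5f1* and *Nanog* among them, were at 0 to 0.852 RPM per 2 kb in the day 8 libraries, and 1 of them, *Esrrb*, passed the filter on low values. A histone mark does not measure expression, so the cell type itself was not checked by expressed markers.

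Loss of H3K9me3 was found at a small set of discrete places. Of 874734 autosomal 2 kb tiles tested with limma, 139 were lower in cKO (0.0159% of tiles tested) and 16 were higher (0.00183%), at a Benjamini-Hochberg adjusted p below 0.05. Joining called tiles at most 4 kb apart gave 92 lower loci, of which 24 held several tiles, and 16 higher loci of 1 tile each. On the log2(RPM + 0.25) scale, the strongest tile of the lower loci changed by between -3.01 and -1.67. At none of the 92 did the control and cKO libraries overlap, and 91 were at least 2-fold lower in both pairs, the exception being a coding exon of *Zfp11*. Over all tested autosomal tiles 0.314% were 2-fold lower in both pairs. The loci were chosen on these same libraries, so both counts follow largely from the choice and are no separate support. The same holds where single loci are said below not to overlap. In bulk chromatin, loss from fewer marked cells or alleles and less mark on each cannot be told apart. These calls depend on the model: 0 tiles were called without limma's variance trend, by limma-voom or after thinning all libraries to the depth of cKO 1, and 13 lower and 4 higher tiles were called without control 1. Leaving out control 2 gave 100 lower and 5 higher, cKO 1 gave 728 and 85, and cKO 2, which leaves the shallow library alone, gave 45487 and 25857.

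Sequences of some of these places are shown first, because the hexamer TGCCGC was frequent among the lower loci. Shown are only named loci whose strongest tile held at least 3 matches to it, and every stretch holds at least 1. Named loci with fewer matches were left out, among them *Neat1* with 1 and *Habp4* with 0. The stretches therefore do not show how common the hexamer was. Each sequence is a 120 base stretch of the strongest tile, from the plus strand of the reference build NCBIM37. Every TGCCGC, or its reverse complement GCGGCA, is in capitals. *Gnas*, *Plagl1*, *Peg3* and *Inpp5f* are imprinted genes, and *Zfp13*, *Nhlrc1* and *Nefm* were not on the imprinted list.
Gnas, coding exons, chr2:174125117-174125236: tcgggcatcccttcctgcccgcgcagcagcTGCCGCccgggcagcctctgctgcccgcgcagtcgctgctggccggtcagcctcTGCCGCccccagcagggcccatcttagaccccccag
Plagl1, at the end of the first exon, chr10:12810822-12810941: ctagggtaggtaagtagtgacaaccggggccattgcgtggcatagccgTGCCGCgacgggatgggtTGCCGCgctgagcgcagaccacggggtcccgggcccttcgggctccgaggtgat
Peg3, within the gene near its start, outside annotated exons, chr7:6682773-6682892: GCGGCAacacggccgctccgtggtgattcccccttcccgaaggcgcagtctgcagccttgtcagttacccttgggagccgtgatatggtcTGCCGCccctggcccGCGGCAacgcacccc
Inpp5f, intron, chr7:135831441-135831560: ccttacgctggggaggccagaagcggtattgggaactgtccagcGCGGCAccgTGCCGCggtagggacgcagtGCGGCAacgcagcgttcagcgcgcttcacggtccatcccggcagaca
Zfp13, coding exon, chr17:23713055-23713174: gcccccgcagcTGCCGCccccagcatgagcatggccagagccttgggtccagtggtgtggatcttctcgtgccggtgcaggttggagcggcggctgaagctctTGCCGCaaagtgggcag
Nhlrc1, outside the gene, over the pseudogene 2010001K21Rik, chr13:47106355-47106474: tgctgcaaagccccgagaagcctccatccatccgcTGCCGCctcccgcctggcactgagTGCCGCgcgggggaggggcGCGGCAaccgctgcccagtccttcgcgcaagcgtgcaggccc
Nefm, intron, chr14:68741535-68741654: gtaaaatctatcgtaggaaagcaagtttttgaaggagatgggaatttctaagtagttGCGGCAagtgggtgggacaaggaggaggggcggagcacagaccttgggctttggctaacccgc
Whole tiles held more matches than the stretches, with 6 in the *Gnas* tile, 6 in that of *Plagl1*, 6 in that of *Peg3* and 5 in that of *Inpp5f*.

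Matches to the hexamer, counted on both strands with no other motif searched, occurred in 62 of the 92 strongest tiles (67.4%) and in 10.4% of all tested autosomal tiles. At least 3 matches were present in 26 lower tiles (28.3%) and in 0.131% of all tested tiles. Marked tiles in general held more matches than all tiles, so part of this difference goes with being marked. Of 4872 tiles with day 4 control H3K9me3 at least 4 times the input, 126 held at least 3 matches. Another 1835 of them held 1 or 2, and 2911 held none. The lower tiles were also richer in CpG, with a median of 35.5 CpG sites per tile against 13 over all tested tiles, and per 100 CpG sites they held 4.25 matches against 0.759. Leaving out the 12 loci near imprinted genes, 51 of the other 80 (63.7%) still held a match. The 16 higher loci had a similar CpG content, with a median of 32.5, but 3 of them held a match and none held 3. A match is a description of the sequence, and binding of ZFP57 was not measured in these libraries.

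The largest falls were at imprinted genes and at a set of other genes in about equal number, shown in the plot of the 15 most changed loci. *Gnas*, which encodes the stimulatory G protein alpha subunit within a complex imprinted locus, had 11.5 and 5.84 RPM at chr2:174124001-174126000 in the controls and 0.882 and 0.719 RPM in cKO. This was a log2 change of -3.01 ± 0.33 (SE, n = 2 per group, limma adjusted p = 4.31e-05), and 6 tiles of the locus were called. The retrogene *Zrsr1* within *Commd1* (chr11:22872001-22874000) had 7.62 and 3.92 RPM in the controls against 1.06 and 0.154 RPM in cKO. At both loci each cKO library was at least 3-fold below the lower control, and control 1 was above control 2.

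**Figure D1:**
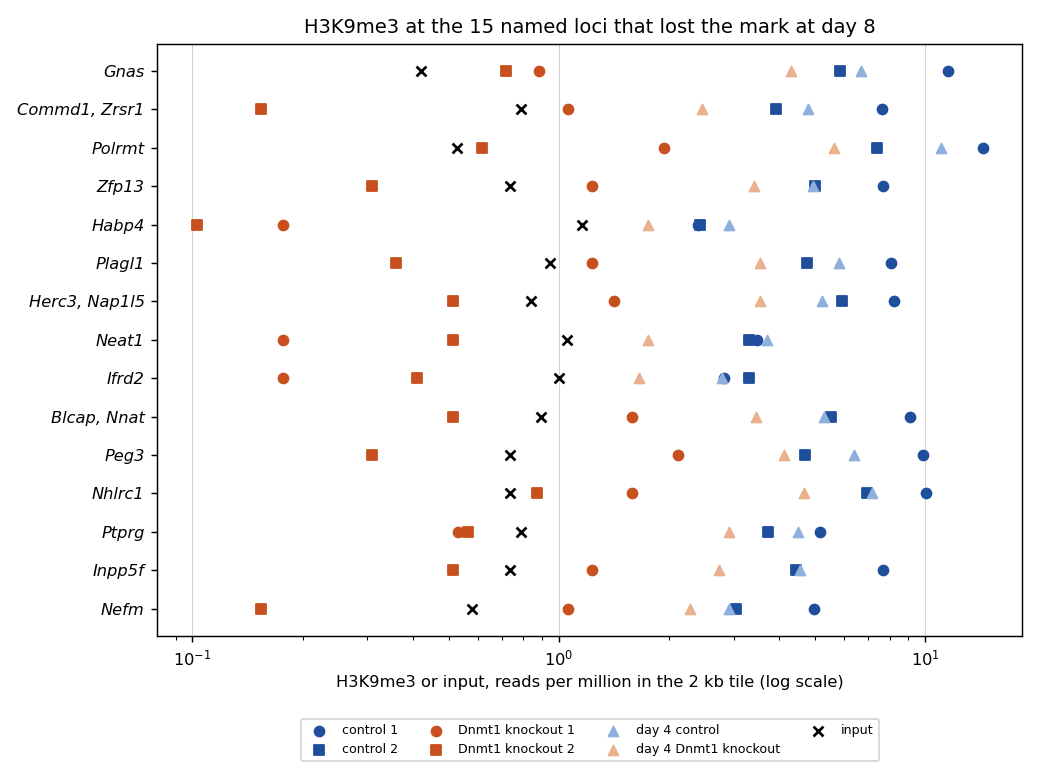
H3K9me3 at the 15 named loci that lost the mark, as RPM in the strongest 2 kb tile on a log axis. Circles and squares are replicates 1 and 2 at day 8, triangles are the single day 4 libraries and crosses the input; at every locus both day 8 cKO libraries lie below both controls, and the day 4 cKO library lies between the lower control and the higher cKO library.

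Imprinted genes with paternal expression made up much of this group. *Plagl1*, a zinc finger transcription factor gene, had 8.05 and 4.75 RPM against 1.23 and 0.36 RPM at its start (chr10:12810001-12812000). *Nap1l5*, a retrogene inside *Herc3*, had 8.21 and 5.94 RPM against 1.41 and 0.514 RPM (chr6:58856001-58858000). *Nnat*, the neuronatin gene inside *Blcap*, had 9.06 and 5.53 RPM against 1.59 and 0.514 RPM (chr2:157384001-157386000). In each of these genes the higher cKO value came from cKO 1 and remained under the lower control.

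*Peg3*, a zinc finger gene expressed from the paternal allele, had 9.86 and 4.7 RPM in the controls and 2.12 and 0.308 RPM in cKO at chr7:6682001-6684000 (log2 change -2.62 ± 0.41, limma adjusted p = 0.00272). *Inpp5f*, which encodes an inositol phosphatase and has an imprinted variant, had 7.67 and 4.44 RPM against 1.23 and 0.514 RPM at chr7:135830001-135832000. The *Peg3* groups did not overlap, but its cKO libraries differed more from each other than those of *Inpp5f*.

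The genes off the imprinted list were of varied function. *Polrmt*, the mitochondrial RNA polymerase gene, had 14.4 and 7.38 RPM against 1.94 and 0.616 RPM at a coding exon (chr10:79202001-79204000, log2 change -2.94 ± 0.37). *Nhlrc1*, which encodes the ubiquitin ligase malin, had 10.02 and 6.92 RPM against 1.59 and 0.873 RPM (chr13:47106001-47108000). Both were as strongly marked in the controls as the imprinted genes, and in neither did the groups overlap.

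*Habp4*, which encodes an RNA-binding protein, had 2.4 and 2.43 RPM against 0.176 and 0.103 RPM in an intron (chr13:64264001-64266000), and 6 tiles of this locus were called. *Ifrd2* had 2.82 and 3.31 RPM against 0.176 and 0.411 RPM at a coding exon (chr9:107492001-107494000). In these genes cKO 1 rested on 1 read per tile, so that its own value is imprecise. The strongest tile held 0 matches to the hexamer in *Habp4* and also in *Ezr*, the ezrin gene with 7 called tiles.

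The receptor phosphatase gene *Ptprg* was marked at its promoter (chr14:12384001-12386000), with 5.17 and 3.72 RPM in the controls and 0.529 and 0.565 RPM in cKO. The neurofilament gene *Nefm* had 4.96 and 3.05 RPM against 1.06 and 0.154 RPM at a coding exon (chr14:68740001-68742000). The remaining loci of the 15 were an exon of the paraspeckle RNA gene *Neat1* (log2 change -2.67) and a coding exon of *Zfp13* (-2.83). Both passed at an adjusted p of 0.000154.

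Most lower loci lay within genes. Of the 92 lower loci, 73 lay at a gene or promoter, 36 at a coding exon and 11 at a gene start or promoter. Counted by tile, 116 of 345359 genic tiles tested were called lower (0.0336%) and 23 of 529375 intergenic ones (0.00434%). Among promoter tiles 16 of 13610 were lower (0.118%), against 0.0159% of all tiles tested. The share of coding exons and of zinc finger exons among all tiles was not counted. Coding exons of zinc finger genes made up 7 of them, namely *Zfp13*, *Zfp787*, *Zfp629*, *Zfp777*, *Zfp668*, *Zfp11* and *Repin1*, a choice of genes made after their values were seen. *Zfp629* had the highest control value of these, with 16.3 and 7.02 RPM against 2.47 and 1.39 RPM in cKO. *Zfp11*, the weakest, had 7.2 and 3.72 RPM against 0.882 and 1.85 RPM, and its pair 2 fell by less than 2-fold on the RPM + 0.25 scale.

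Relative to the input, the lower loci were marked in the controls, and most were at most 2 times the input in cKO. The loci and their strongest tiles were chosen on these same libraries, so the levels given here follow in part from the choice. Control over input was 4.45 in the median (range 1.64 to 20.7) and at least 4 at 52 loci, whereas cKO over input was 0.817 (range 0.121 to 3.84). In cKO, 84 of 92 loci were at most 2 times the input, of which 60 were within 2-fold of it and 24 more than 2-fold below it. The other 8 stayed over 2 times the input. At the lower loci near imprinted genes the median was 1.85 times the input in cKO 1 and 0.544 in cKO 2. The mean profile across the loci had a centre of 4.87 and 3.13 RPM in the controls and 0.824 and 0.558 RPM in cKO, against 0.794 RPM in the input. At 10 kb on either side the controls were at 0.697 to 0.754 RPM and the input at 0.803 and 0.807 RPM.

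**Figure D2:**
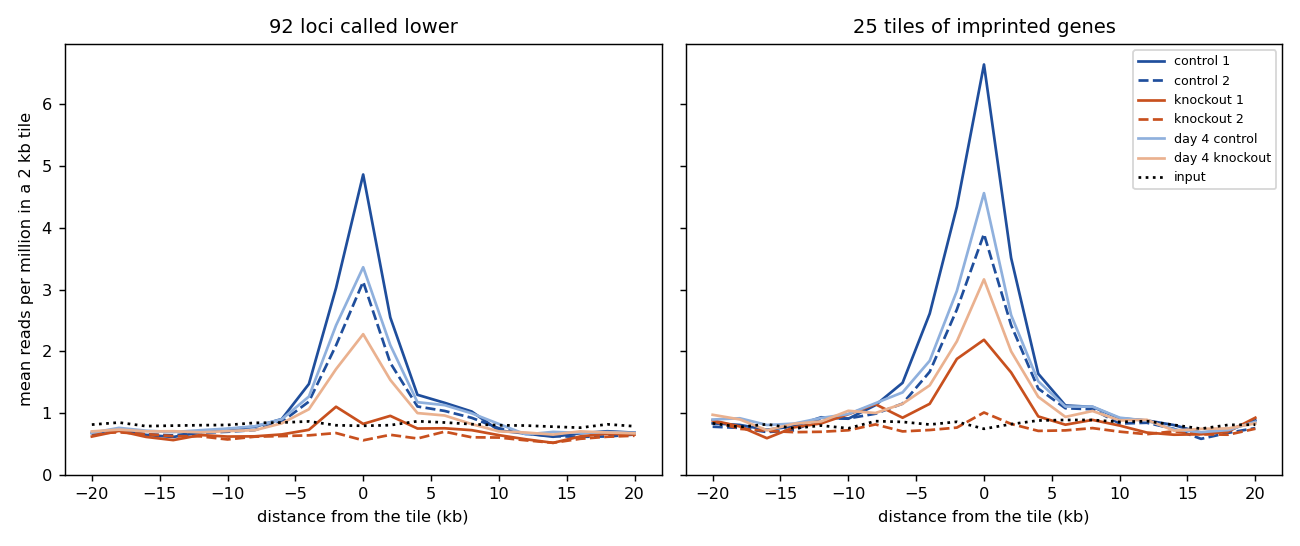
Mean H3K9me3 and input, in RPM per 2 kb tile, against distance in kb from the strongest tile of the 92 lower loci (left) and from the 25 tiles chosen for imprinted genes (right), 1 line per library. At the centre of the left panel controls reach 4.87 and 3.13 and cKO libraries 0.824 and 0.558; cKO 1 keeps a peak of 2.19 over the imprinted tiles, above the input at 0.745.

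Day 4 libraries, which the day 8 calls did not use, lay between. The median log2 change at day 4 was -0.52 over the 92 loci against 0.01 over all tested autosomal tiles. The mark was lower in cKO at 88 of 92 loci, against 48.9% of all tiles, with 1 library per genotype and no replicate check. The lowest day 4 change was at a locus near *Gm17283* (5.41 RPM in control and 2.02 RPM in cKO), and at 4 loci the day 4 fall was over 50% of the day 8 fall. Over the lower loci the day 4 centre was 3.36 RPM in control and 2.28 RPM in cKO.

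The change could be set beside the other marks at the same loci. H3K9me2 was low there in the controls, at 0.443 and 0.445 of the input in the median, and its median log2 change was -0.13 in pair 1 and 0.40 in pair 2. No lower locus had a 2-fold change of H3K9me2 in the same direction in both pairs on the RPM + 0.25 scale. Control levels this low leave little room for a 2-fold fall on that scale, so a loss of H3K9me2 could hardly be seen. For H3K27me3 the medians were -0.16 and -0.08, against 0.03 and 0.08 over all tested tiles. In both pairs 3 loci were at least 2-fold higher and 5 at least 2-fold lower, on the RPM + 0.25 scale. The share of all tested tiles with such changes in these 2 marks was not counted, so these counts have no background to be read against.

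The 3 loci with higher H3K27me3 were the promoter of *Fkbp6*, the *Zfp629* exon and a tile near *Lep*. At *Fkbp6*, a germline gene, H3K27me3 was 1.64 and 1.3 RPM in the controls and 4.61 and 4.09 RPM in cKO, while H3K9me3 went from 5.33 and 3.31 RPM to 0.882 and 0.771 RPM. At *Zfp629*, H3K27me3 was 0.962 and 2.02 RPM against 3.07 and 4.51 RPM. Neither locus had overlapping groups for either mark, which follows largely from choosing these loci on both marks. The 5 with lower H3K27me3 were *Plagl1*, *Nnat*, *Zfp777*, *Repin1* and the start of *Airn* within *Igf2r*. At *Airn*, the noncoding RNA that silences *Igf2r* in cis, it was 4.09 and 2.87 RPM in the controls and 0.991 and 0.535 RPM in cKO. Changes of H3K27me3 are given as values without a test.

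Imprinted genes were then examined as a class, with the tile of each gene taken as the one with most day 4 control H3K9me3 within 10 kb of the gene, so that day 8 values did not choose it. Of 32 listed genes 29 were matched in the annotation, giving 25 distinct tiles, 24 of which passed the filter on low values. Of these 12 were called lower, against 0.0159% of all tiles, and 0 higher, and their median log2 change was -1.84 against 0.01 over all tiles. Most of all tiles carried little of the mark. A nearer background is the tiles whose day 4 control was at least 4 times the input, of which 1.13% were called lower, with a median of -0.10. In 17 tiles the mark was at least 2-fold lower in both pairs. Without control 1, 4 of the 12 loci near imprinted genes were still called, and 8 with centring on 100 kb windows. At day 4, 24 of the 25 tiles were below 0, with a median of -0.53. The day 4 control chose these tiles, which by itself favours a fall at day 4. Summed over all autosomal tiles whose day 4 control was at least 4 times the input, the day 4 log2 change was -0.28. The day 4 values of the imprinted tiles are therefore not independent of the choice.

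**Figure D3:**
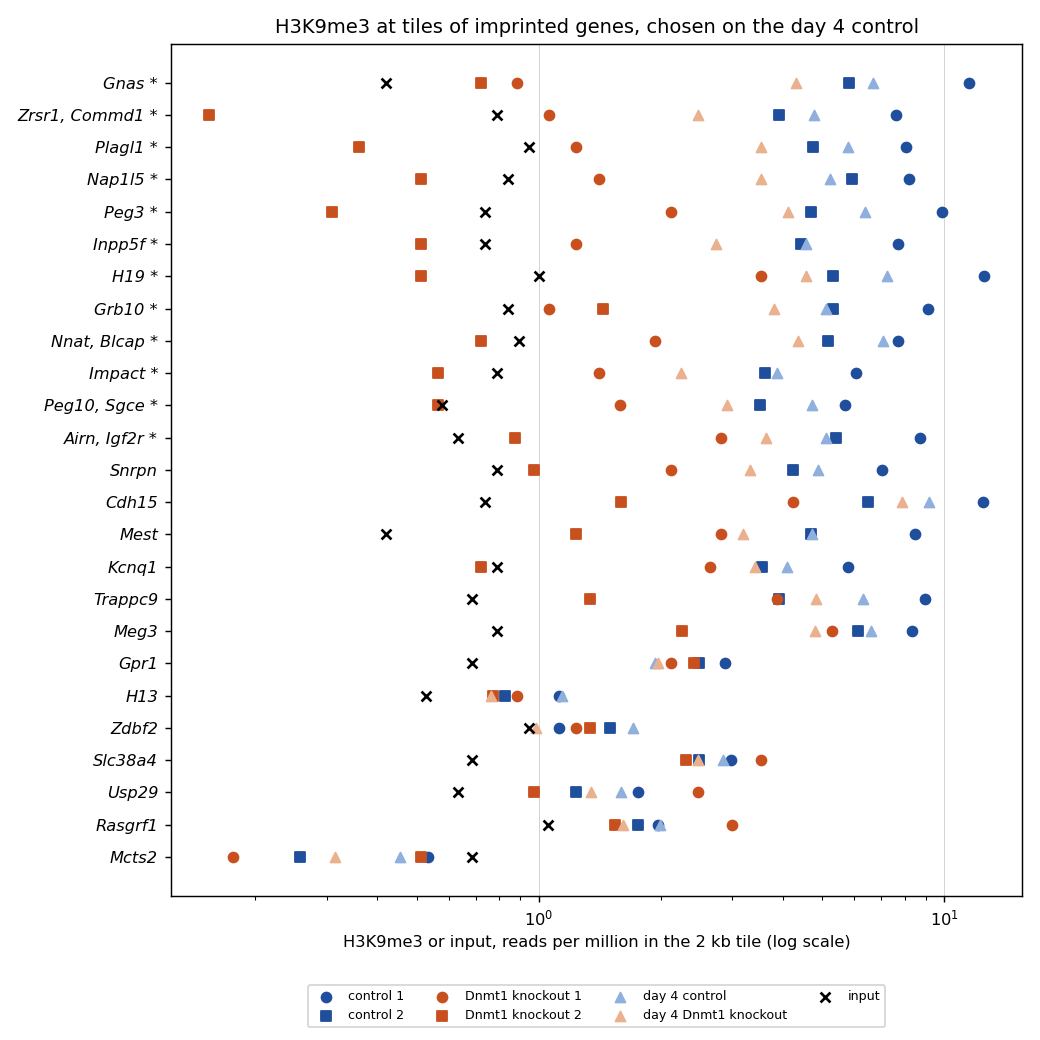
H3K9me3 at the 25 tiles of imprinted genes, as RPM in the 2 kb tile on a log axis, with the 12 called lower marked by an asterisk. Symbols are as for the 15 lower loci; from *Gnas* down to *Meg3* both cKO libraries lie below both controls, and from *Gpr1* down to *Mcts2* the groups are intermixed or close.

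Called tiles were those of *Gnas*, *Zrsr1* and *Commd1*, *Plagl1*, *Nap1l5*, *Peg3*, *Inpp5f*, *H19*, *Grb10*, *Nnat* and *Blcap*, *Impact*, *Peg10* and *Sgce*, and *Airn* and *Igf2r*. The tile upstream of the noncoding RNA gene *H19*, 1953 bp from it, had 12.5 and 5.32 RPM in the controls and 3.53 and 0.514 RPM in cKO (log2 change -2.31 ± 0.43, limma adjusted p = 0.03). *Grb10*, a growth-limiting adaptor gene, had 9.11 and 5.32 RPM against 1.06 and 1.44 RPM (-2.28 ± 0.33, limma adjusted p = 0.000849). The *H19* cKO libraries differed by more than the *Grb10* ones.

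In 18 of the 25 tiles the controls were at least 4 times the input, and in each of these 18 both cKO libraries lay below both controls. The 6 of them that did not pass were *Snrpn*, *Cdh15*, *Mest*, *Kcnq1*, *Trappc9* and *Meg3*. *Snrpn* had 7.04 and 4.23 RPM against 2.12 and 0.976 RPM (log2 change -1.75, limma adjusted p = 0.0517). *Meg3*, a maternally expressed noncoding RNA gene, had 8.31 and 6.15 RPM against 5.29 and 2.26 RPM (-0.99, limma adjusted p = 0.398). *Trappc9* was at -1.28 and *Kcnq1* at -1.52, and for these genes a loss was not detectable by the test rather than absent.

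The other tiles carried little of the mark in the controls or kept it. They were chosen by day 4 level and not by the position of a control region, so they do not show whether the imprint itself kept the mark. The 6 of them tested held 6 to 29 CpG sites, against 60 to 148 in the called tiles. Those of *Slc38a4* and *Usp29* lay 9254 and 9521 bp from the gene. *Slc38a4* had 2.98 and 2.48 RPM in the controls and 3.53 and 2.31 RPM in cKO, and *Rasgrf1* had 1.97 and 1.76 RPM against 3.0 and 1.54 RPM, so that groups overlapped in both genes. *Gpr1*, *H13*, *Zdbf2* and *Usp29* had log2 changes of -0.22, -0.18, -0.01 and 0.08. *Mcts2* did not pass the filter on low values. The tiles of the last 6 genes tested held 0 matches to TGCCGC, whereas 18 tiles of the 25 held at least 1.

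At promoters, defined as tiles overlapping the 1 kb before a gene start, 11 of 9192 tested were lower (0.12%) and 0 were higher by limma (unadjusted p below 0.05 for 352 and 611). The other fits called 0 to 16 promoters higher, except that 411 were called lower and 431 higher without cKO 2, and 42 lower and 11 higher without cKO 1. The 11 were *Zrsr1*, *Plagl1*, *Nnat*, *Pnpla1*, *Peg3*, *Sgce*, *Ptprg*, *Nespas*, *Nap1l5*, *Peg10* and *Fkbp6*. Of 18 imprinted promoters tested, 7 were lower, with a median of -1.54 against 0.07 for all. No promoter was called without the variance trend or after thinning. *Pnpla1*, a lipid metabolism gene, had 6.66 and 5.53 RPM against 1.59 and 0.462 RPM per 2 kb, without overlap.

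Germline genes, many of which are silenced by promoter DNA methylation, had few calls as a class. Of 26 promoters tested 1 was lower, *Fkbp6* (log2 change -1.95 ± 0.28, limma adjusted p = 0.00493), and 0 were higher, with a median of 0.31. The *Dazl* promoter, an RNA-binding protein gene of germ cells, held 27 and 23 reads in the controls and 1 and 20 in cKO, and was not called (-1.08). Over whole gene regions 1 of 22 was lower and 5 were higher, among them *Tuba3b* (0.81), *Tdrd6* (0.76) and *Tdrd1* (0.62). Against these 5 (22.7%), 10.6% of all gene regions tested were higher.

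Over gene regions, from 1 kb before the start to the end of the gene, limma called 401 of 14006 lower (2.86%) and 1487 higher (10.6%), with a median log2 change of 0.11. *Polrmt* led the lower ones, with 4.39 and 2.96 RPM per 2 kb in the controls and 0.781 and 0.382 RPM in cKO (log2 change -2.64 ± 0.22, limma adjusted p = 6.9e-07). *Nnat*, *Nhlrc1*, *Zrsr1*, *Blcap*, *Ifrd2*, *Gm16190*, *Habp4*, *Nespas* and *Nap1l5* followed, at changes of -2.59 to -1.91. Of 27 imprinted gene regions 16 were lower and 0 higher, with a median of -0.69. Both numbers changed with base composition: with a correction for GC content 122 regions were lower and 967 higher. Higher regions thus stayed the more numerous, and the corrected median was 0.13. No gene region was called by limma without the variance trend, from the deposited log2 values or after thinning, and 189 lower and 758 higher were called without control 1, 93 and 237 without control 2 and 1132 and 2278 without cKO 2.

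Higher gene regions had smaller changes, up to 1.35 for *Gm15949*. *Zfp488* was at 1.26 ± 0.18 (limma adjusted p = 0.000212), with 0.647 and 0.62 RPM per 2 kb in the controls and 1.89 and 1.3 RPM in cKO, and an input of 0.691 RPM. *Spz1*, *Olfr1057*, *A730018C14Rik*, *Gm16095*, *Olfr461*, *Rfxap*, *A630077J23Rik* and *Zfp334* were between 1.07 and 1.19. In *Zfp488* the controls were at the level of the input and both cKO libraries above it.

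Zinc finger genes with the symbol Zfp and a number had 13 of 177 tested lower (7.34%, against 2.86% of all gene regions) and 9 higher (5.08%, against 10.6%), with a median of -0.02 against 0.11. The lower ones included *Zfp629* (-1.72), *Zfp668* (-1.55), *Zfp13* (-1.41) and *Zfp787* (-1.40). These large falls were in genes whose coding exon was itself a called locus. With the GC correction 6 of the 177 were lower and 9 higher, against 122 and 967 of all 14006 gene regions. The corrected median was 0.03, against 0.13 for all.

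Receptor gene families in AT-rich clusters had medians below that of all gene regions (0.11). Of 966 olfactory receptor gene regions 23 were lower (2.38%, near the 2.86% of all gene regions) and 2 higher (0.207%, against 10.6%), with a median of -0.23. Of 216 vomeronasal receptor regions 31 were lower (14.4%) and 0 higher, with a median of -0.37. With the GC correction the medians became 0.04, a turn of direction, and -0.05, and the counts 8 lower and 10 higher, and 10 lower and 3 higher. Over all 14006 gene regions the corrected median was 0.13, with 122 lower and 967 higher. Both receptor medians thus stayed below that of all gene regions. *Vmn2r52* had 1.11 and 1.59 RPM per 2 kb against 0.67 and 0.647 RPM (-0.99 ± 0.17, limma adjusted p = 0.000773). Of 23 prolactin family gene regions 1 was lower (4.35%, near the background of 2.86%), with a median of -0.38, or 0 and -0.05 with the correction. Of 41 beta-defensin gene regions 3 were higher (7.32%, under the background of 10.6%), with a median of 0.06, or 1 and 0.09 with the correction.

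For the 12 genes of the embryonic 2-cell stage that were tested, 0 were lower and 0 higher by limma, with a median of -0.14. *Dux*, the transcription factor gene of that stage, had 6.7 and 6.01 RPM per 2 kb in the controls and 5.88 and 4.3 RPM in cKO, a change of -0.33 (limma adjusted p = 0.124) that did not pass. *Tdpoz3* had the lowest value of the list, at -0.73. Clustered protocadherin genes had 1 of 9 lower, *Pcdhgc5* (-0.38), and 2 Hox and 4 ribosomal protein gene regions tested had no call. With 2.86% of all gene regions lower and 10.6% higher, 0 or 1 call in lists this small is near the background.

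Base composition moved with the 10 kb windows as well. Of 189495 autosomal windows 623 were lower (0.329%) and 642 higher (0.339%). From the 25% of windows with the lowest GC content to the 25% with the highest, the median change went from -0.24 to 0.21 in pair 1 and from -0.26 to 0.26 in pair 2, lower calls from 335 to 83 and higher calls from 1 to 476. With the GC correction 147 were lower and 16 higher, and after thinning limma called 0. Lower and higher windows numbered 75 and 63 without control 1, 88 and 20 without control 2, 3971 and 3212 without cKO 1 and 19271 and 15033 without cKO 2. The part of GC content in these calls was not tested further.

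The strongest lower windows repeated the tile loci, led by *Polrmt* (chr10:79200001-79210000, log2 change -2.78, 554 and 364 reads against 28 and 40), *Gnas* and *Zrsr1*. The top higher windows were near *Vamp2* (1.35), in *Glp1r* (1.34), which encodes an incretin receptor, and in *Enoph1* (1.30). A window of *Setdb1* (chr3:95140001-95150000), the gene of an H3K9 methyltransferase, had 41 and 38 reads against 33 and 90 (1.23, limma adjusted p = 0.0142). The cKO 1 library, with 5669098 reads in all, had nearly as many reads there as the controls.

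Counting tiles at least 2-fold changed in both pairs, by RPM ratio and without a test, gave 12744 lower (1.46%) and 8908 higher (1.02%), against 7736 with opposite changes (0.884%). In 10 kb windows, where counting error was smaller, 230 were lower (0.121%), 78 higher (0.0412%) and 4 opposite. Discordant tiles were nearly as many as the higher ones, whereas discordant windows were few.

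**Figure D4:**
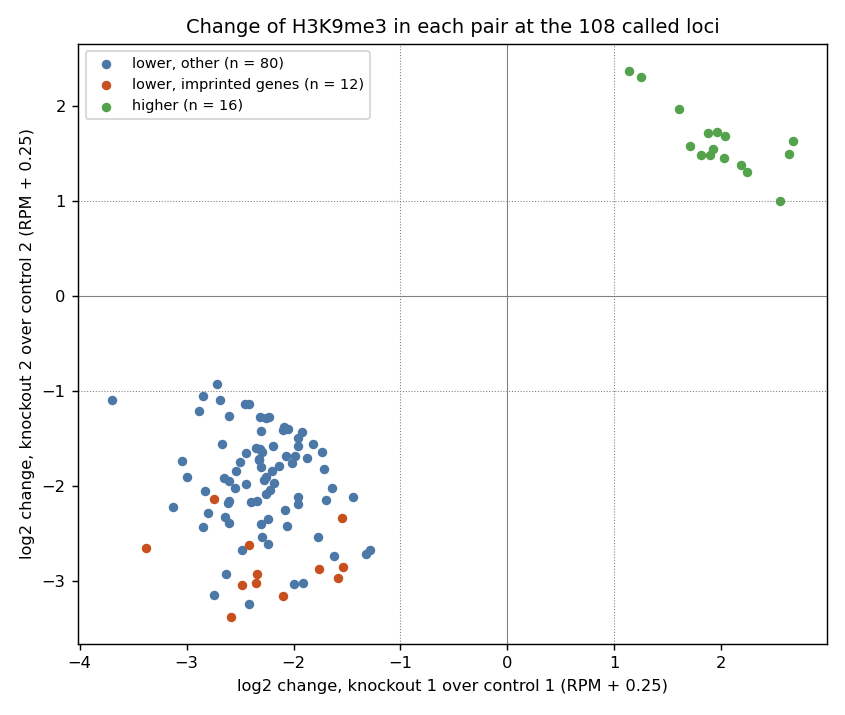
Log2 change of H3K9me3 in pair 2 against pair 1 at the strongest tile of the called loci, with dotted lines at 2-fold. The 92 lower loci, 12 of them near imprinted genes, sit below -0.91 in both pairs and the 16 higher loci above 1.00 in both; the loci were chosen on these libraries.

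Gains of the mark were small in number and low in level. The clearest was in an intron of *Ccdc3* (chr2:5146001-5148000), with 0.48 and 0.775 RPM in the controls and 4.41 and 2.93 RPM in cKO (log2 change 2.15 ± 0.33, limma adjusted p = 0.00164). A tile near *Unc5b*, a netrin receptor gene, had 0.16 and 0.258 RPM against 2.29 and 1.18 RPM (chr10:60308001-60310000). In both, each cKO library was above both controls. At the 16 higher loci controls were 0.564 of the input in the median and cKO libraries 2.79 times the input, with changes from 1.65 to 2.15.

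Other higher tiles lay in *Map3k4*, *Tiam1*, *Spnb1*, *Glp1r*, *Slc39a11* and *Epsti1*, at the promoter of *Zfp488*, and near *Gm4349*, *Mettl21d*, *Mapkap1*, *Dlx2*, *Hnrnpd* and *Syt11*. *Dlx2*, a forebrain transcription factor gene, had 0.426 and 0.516 RPM against 2.82 and 1.75 RPM in the tile near it. In cKO these tiles were at 1.39 to 3.70 RPM. In no higher locus did the groups overlap, which follows largely from choosing the loci on the same libraries. The median day 4 change of the 16 was 0.06, and 4 of 16 were still called with the GC correction.

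Marked tiles were next grouped without day 8 values. A tile counted as strongly marked when its day 4 control H3K9me3 was at least 4 times the input with at least 20 reads. Of 4872 such tiles 55 (1.13%) were called lower at day 8 and 0 higher, and 2.13% were at least 2-fold lower in both pairs on the RPM + 0.25 scale, against 0.314% of all tested tiles. Summed over these tiles the controls were at 3.98 and 2.80 RPM per tile and cKO at 3.89 and 2.38 RPM, so that replicate 1 was higher than replicate 2 in both genotypes. Their median change was -0.10.

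**Figure D5:**
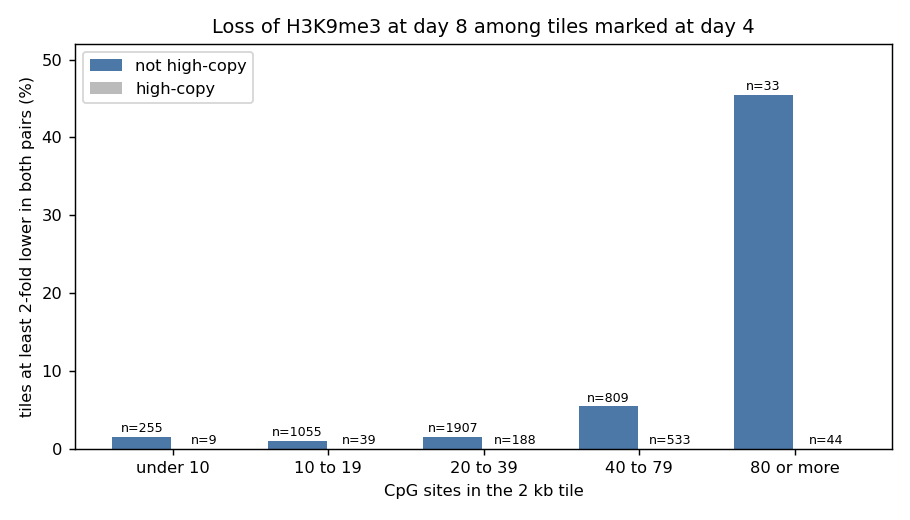
Share of strongly marked tiles (day 4 control at least 4 times the input) that were at least 2-fold lower in both day 8 pairs, in percent, by CpG sites per 2 kb tile, with the number of tiles above each bar. Among tiles not high-copy, 15 of 33 with 80 or more CpG sites were lower; no high-copy tile was, so those bars are at 0.

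Loss differed between sequence classes of strongly marked tiles. None of 813 strongly marked tiles in high-copy sequence was called or was 2-fold lower in both pairs, where high-copy means that at least 50% of sampled 31-base words occur at least 50 times in the genome, a class taken from earlier work on these data. In 4059 tiles not high-copy 55 were called. Among those with at least 40 CpG sites 40 of 842 were called (4.75%), and with under 20 CpG sites 4 of 1310. With at least 80 CpG sites, 14 of 33 tiles not high-copy and 0 of 44 high-copy tiles were called. Reads that map to several copies were discarded in part by the mapping quality filter, which limits what high-copy tiles can show.

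Calls among the strongly marked tiles were more frequent with at least 3 hexamers than with fewer, and CpG content was not held fixed in these counts. With at least 3 matches, 23 of 126 were called (18.3%) and 29.4% were 2-fold lower in both pairs, and away from imprinted list genes 12 of 110 were called (10.9%). With 1 or 2 matches 18 of 1835 were called (0.981%), near the 1.13% of all strongly marked tiles, and without a match 14 of 2911 (0.481%). Near imprinted list genes 20 of 43 were called (46.5%) with a median of -1.81, and in zinc finger genes 7 of 22, of which 5 were among the 9 with at least 40 CpG sites. Tiles near chromosome ends were counted over all tested tiles and not only strongly marked ones. In the first Mb with reads of each autosome 0 of 5964 were called by limma, and in the last Mb 0 of 6348. With 0.0159% of all tested tiles lower, 0 calls in sets of this size is near the background. The medians were -0.05 and -0.11.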

How the data were processed

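Chromatin of ESCs was immunoprecipitated with an H3K9me3 antibody and sequenced with 100 base paired ends. Per the labels, reads were mapped to NCBIM37 with Bowtie2 2.2.9. According to the study's methods, the authors trimmed reads with Trim Galore and discarded alignments of mapping quality under 20. Duplicate removal is not given in the sources used here, and input was not subtracted. The deposited values are log2 ratios of observed to expected reads per tile, with an empty tile written as 0.9 read. The methods describe smaller tiles, but the table holds 1327469 tiles of 2 kb on 22 chromosomes whose lengths equal those of the reference.

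Read counts were recovered from the log2 steps. Within a tolerance of 0.02, 100% of values up to 50 reads were whole. Reads were summed per 2 kb tile, 10 kb window, gene region or promoter and scaled to RPM. Features with a mean of at least 0.5 RPM per 2 kb over the 4 libraries were fitted on all chromosomes as log2(RPM + 0.25), 2 against 2, with lmFit and eBayes (trend) in limma 3.58.1 (R 4.3.3). Tests were two-sided, with Benjamini-Hochberg adjustment over all features and a threshold of 0.05, and autosomal results are given. The scripts were tested on simulated data. A fold change on this scale understates that of low tiles. Counting error falls with depth and is largest in cKO 1.

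Named were, in each direction, the 15 loci with the largest change that were at least 2-fold changed in both pairs, up to 10 called gene regions or promoters with the largest change, every gene of the imprinted list, up to 4 members of each other list, and *Dnmt1*. The members and gene lists were chosen with earlier results of these data known, and the high-copy class came from that work. The zinc finger exons, the loci named for H3K27me3, *Ezr*, *Dazl*, *Syt11*, *Gm17283*, the 10 kb windows and the last called promoter were named after their values were seen. Gene models were GENCODE for NCBIM37 (26212 genes). Alternatives were a replicate block, a GC correction, centring on 100 kb windows, other pseudocounts and filters, no trend, limma-voom, the deposited log2 values, thinned libraries, leaving out high-input tiles, and leaving out each library. Other tools were Python 3.11.15, numpy 2.4.6, pandas 2.3.3 and matplotlib 3.10.9. Day 4 and the other marks have values only. Of the 16 higher loci, 1 is counted but not otherwise reported here.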

Additional observations from a re-analysis of the deposited data

Results flagged for a closer look

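Of the 16 loci with higher H3K9me3 at day 8, 7 were below 0 in the single day 4 pair (43.8%, near the 48.9% of all tested autosomal tiles), opposite to both day 8 pairs. The day 4 log2 change was -0.40 near *Gm4349*, -0.14 near *Mettl21d*, -0.12 in *Spnb1*, -0.087 in *Glp1r* and -0.034 in *Slc39a11*. Day 4 has 1 library per genotype, and the difference between the days was not tested.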

How the results depend on the processing

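All 92 lower and 16 higher loci kept their direction in every alternative that gave them a value. The numbers of calls did not: for 2 kb tiles, 139 lower and 16 higher became 1004 and 883 with the replicate block, 399 and 182 with the block and GC correction, 131 and 9 with the GC correction, 90 and 4 with centring on 100 kb windows, 161 and 29 with a pseudocount of 1 RPM, 33 and 0 with no filter, 477 and 699 with a filter at 1 RPM, and 0 and 0 with no trend, limma-voom or thinned libraries. Leaving out 1 library gave 13 to 45487 lower and 4 to 25857 higher tiles. For 10 kb windows, 623 lower and 642 higher became 6599 and 7569 (block), 1826 and 1280 (block and GC), 147 and 16 (GC), 688 and 978 (centring), 82 and 31 (no filter), 888 and 2723 (filter at 1 RPM), 37 and 2 (no trend), 4718 and 6871 (limma-voom), 257 and 213 (deposited log2 values), 0 and 0 (thinned) and 1242 and 1504 (without high-input tiles), with 75 to 19271 and 20 to 15033 on leaving out 1 library. The gene regions called numbered 1888, and 3143 with the block, 1089 with the GC correction, 1123 with no filter, 391 with a filter at 1 RPM, 0 with no trend, deposited values or thinning, and 330 to 3410 without 1 library. The promoters called numbered 11, and 23 with the block, 66 with the block and GC, 7 with centring, a pseudocount of 0.1 RPM or no filter, 17 with a filter at 1 RPM, 20 by limma-voom, 4 from deposited values, 0 with no trend or thinning, and 13 to 842 without 1 library. Where a group was left with 1 library, that library was assumed to vary like the others. The causes were not tested, except that thinning lowers depth by construction.

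The labels do not say what libraries with the same replicate number share. Deviations of same-numbered libraries correlated at 0.0536 over tiles, 0.144 over windows, 0.155 over gene regions and 0.077 over promoters. These are taken over all features that passed the filter. In the strongly marked tiles replicate 1 was above replicate 2 in the controls (3.98 and 2.80 RPM) and in cKO (3.89 and 2.38 RPM). A shared replicate effect there is thus not excluded. All 92 lower loci were still called with the block, 80 with the GC correction and 61 with centring. Single values near 0 changed sign. The H3K9me3 change of the imprinted list tile Usp29 was -0.023 with the GC correction, with and without the block, -0.12 by limma-voom and -0.50 to 0.65 without 1 library. The H3K9me3 change of the imprinted list tile Zdbf2 was 0.15 with the GC correction, with and without the block, 0.019 with centring, 0.035 by limma-voom, 0.010 with thinning and -0.19 to 0.16 without 1 library. Without 1 library the H3K9me3 change of the imprinted list tile Slc38a4 was -0.21 to 0.35 and the H3K9me3 change of the imprinted list tile Rasgrf1 was -0.24 to 0.62. Under alternatives chosen after seeing the data, the tiles 2-fold lower in both pairs and the tiles 2-fold higher in both pairs numbered 31898 and 13497 with no filter, 1295 and 3031 with a filter at 1 RPM, 30205 and 29481 with thinning, and 14312 and 9367 without high-input tiles. Depth limits single tiles of cKO 1 most, at 0 to 20 reads over the lower loci.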
